A study of Mus musculus with 25 samples.

Results

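The enzymes that write and erase methylation on lysine 4 and that erase it on lysine 27 of histone H3 were followed from the oocyte to the 2-cell embryo, with and without maternal Smarca4. They were 10 of the 24412 gene symbols in the deposited tables, taken by name: the H3K4 methyltransferases Kmt2a, Kmt2b, Kmt2c and Kmt2d, the H3K4 demethylases Kdm5a, Kdm5b, Kdm5c and Kdm1b, and the H3K27 demethylases Kdm6a and Kdm6b. Of these, 9 passed the filter on low values and were tested, and Kmt2a did not. RNA was sequenced in 25 mouse libraries, and the Smarca4 knockout (KO) was compared with wild type (WT) at 4 stages: MII oocytes, which are unfertilised and arrested in meiosis (2 KO and 3 WT libraries), PN3 zygotes, which are fertilised and have pronuclei (4 and 4), early 2-cell embryos (E2C, 3 and 3) and late 2-cell embryos (L2C, 3 and 3). Oocytes for sperm injection came from superovulated females 8 to 12 weeks old, given 7 IU of PMSG and, after 48 h, 5 IU of hCG; the females were Smarca4flox/flox Gdf9 Cre C57BL/6 animals or B6D2F1 animals. Gdf9 Cre deletes the floxed gene in the oocyte and not in the sperm, so the KO embryo lacks the maternal product. The labels name neither the strain behind each library nor the genotype of the sperm, and strain and genotype cannot be told apart.

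Methylation of H3K4 marks promoters and enhancers, and methylation of H3K27 marks repressed genes. The mouse oocyte carries unusually broad domains of trimethylated H3K4, laid down mainly by Kmt2b, and these are removed in the 2-cell embryo, when the embryo's own genome is switched on, by the demethylases Kdm5a and Kdm5b. Kmt2c and Kmt2d monomethylate H3K4 at enhancers. Kdm1b removes mono- and dimethylated H3K4 and is needed in mouse oocytes for maternal DNA methylation imprints. Kdm6a (UTX) and Kdm6b (JMJD3) remove di- and trimethylated H3K27, and Kdm6a also sits in the Kmt2c and Kmt2d complexes. Smarca4 (Brg1) is the motor subunit of the BAF complex, which moves nucleosomes.

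The sequences just before the annotated starts of Kdm5b and Kdm1b are shown because these genes had opposite courses at the late 2-cell stage in WT. They are from RefSeq (GRCm38.p6), in the direction of transcription, with capitals marking GC boxes (GGGCGG on either strand). The Kdm5b stretch is chr1:134559928-134560170 on the plus strand and the Kdm1b stretch is chr13:47043249-47043498 on the plus strand.
Kdm5b: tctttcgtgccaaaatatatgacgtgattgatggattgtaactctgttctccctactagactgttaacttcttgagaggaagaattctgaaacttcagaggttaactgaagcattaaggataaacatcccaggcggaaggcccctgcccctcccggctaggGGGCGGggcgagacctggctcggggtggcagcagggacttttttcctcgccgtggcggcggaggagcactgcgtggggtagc
Kdm1b: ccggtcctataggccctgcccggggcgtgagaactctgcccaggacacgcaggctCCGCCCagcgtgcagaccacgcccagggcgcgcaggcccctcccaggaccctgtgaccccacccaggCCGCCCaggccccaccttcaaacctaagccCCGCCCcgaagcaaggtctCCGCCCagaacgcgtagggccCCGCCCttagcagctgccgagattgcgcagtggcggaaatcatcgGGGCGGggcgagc
The RefSeq promoter table, which gives 250 bases before and 50 after each start, held a window for 7 of the 10 genes. The windows held 1 GC box in Kdm5b, 6 in Kdm1b, 12 in Kmt2c, 5 in Kmt2a, 4 in Kmt2d, 1 in Kdm6a and 0 in Kdm5c. A GC box was present in 35.7% of all 32851 windows. The CCAAT box (CCAAT, in 37.4% of windows) was found in Kdm5c, and the nuclear receptor half-site (AGGTCA, in 16.3%) in Kdm6a. TATAAA (13.6%) and TAATCC, the core of the OBOX and OTX homeobox motif (7.06%), were not found in these 7 windows. All 5 motifs were searched on both strands. The windows do not count the alternative starts of these genes.

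Values are FPKM (fragments per length of transcript and per library total) rescaled between libraries by a median ratio, and log2 differences are on the scale of log2(scaled FPKM + 1), which understates the change of low genes. A gene was called, and is said to have risen or fallen, at a limma adjusted p (Benjamini-Hochberg over all 12079 genes tested) under 0.05, with the variance estimated over 8 group means and weighted by stage. On simulated data 18.8% to 33.2% of KO against WT calls by this fit were false, against 2.11% to 3.97% with each stage fitted alone. Steps between stages were not simulated. Read depth is unknown. Each FPKM is a share of its library, which hides any gain or loss of RNA as a whole, and in such bulk samples fewer contributing cells and less RNA per cell cannot be told apart. No label says that replicates came from separate females, and a p-value here covers the spread between these samples alone, which may be technical.

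Smarca4 was lower in every KO library than in every WT library of its stage, with log2 differences of -4.57 in MII oocytes, -4.61 in PN3 zygotes, and -3.19 and -1.60 in early and late 2-cell embryos (limma adjusted p of 3.95e-21, 1.39e-19, 5.9e-05 and 0.0213, and 0.431 and 0.295 for the 2-cell stages fitted alone). In KO it stood at 0.767 to 5.12 at E2C and 21.0 to 22.5 at L2C. The summed level of 10 oocyte genes was 3620 to 3790 in KO and 3360 to 3390 in WT at MII, and summed markers of granulosa cells, sperm and blood were at most 6.67, 20.3 and 2.94 in any library. WT L2C replicates 1 and 2 stood apart from WT L2C replicate 3. All 5 Y-linked genes examined, among them Kdm5d and Uty, the Y copies of Kdm5c and Kdm6a, were listed at 0 in both. This list was chosen after its values were seen. The summed level of the 5 was 2.42 to 4.92 in KO L2C and 3.52 in WT L2C replicate 3. At E2C that sum was 1.68, 0.0 and 0.397 in KO and 0.884, 0.0 and 0.152 in WT. The oocyte sum was 1010, 1340 and 1390 in KO L2C, against 401, 509 and 1160 in WT L2C, and the sum of 10 2-cell genes was 244, 301 and 302 in KO L2C, against 97.5, 99.5 and 320 in WT L2C. WT E2C replicate 2 had 9345 genes above 0, against 13585 to 16698 in the other libraries, and both E2C replicates 3 had high 45S ribosomal precursor (Rn45s 10900 in KO and 7360 in WT, against 812 to 2600 in the other E2C libraries).

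In the oocyte and zygote the demethylase Kdm6b was the most abundant of the 10 transcripts. At MII it averaged 91.2 scaled FPKM in KO and 65.6 in WT, above Kmt2d, Kmt2c, Kdm6a, Kdm1b and Kmt2b (32.4 to 50.0 in KO and 30.5 to 47.1 in WT). The ranges of most neighbours in that middle group overlapped: in WT MII those of Kmt2c, Kdm6a, Kdm1b and Kmt2d did so in turn. Kdm5c followed at 4.31 in KO and 4.61 in WT, and Kdm5a, Kdm5b and Kmt2a were each under 0.6 in every MII library of either genotype. The order changed at L2C. Kdm5b then had the highest mean in WT (113), with a range that overlapped that of Kmt2c (102), and in KO Kmt2c came first (90.0) and Kdm5b next (71.2), without overlap. Kmt2a, the founding member of its family, stayed at or below 0.482 in every library and was listed at 0 in WT E2C replicate 2. Its exons share 378 bases with an antisense gene, and whether the counting used strand is not known. Exons of Kdm6b share 286 bases with the antisense gene Kdm6bos, and those of Kmt2c share 274 with Gm42585 on the opposite strand.

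**Figure D1:**
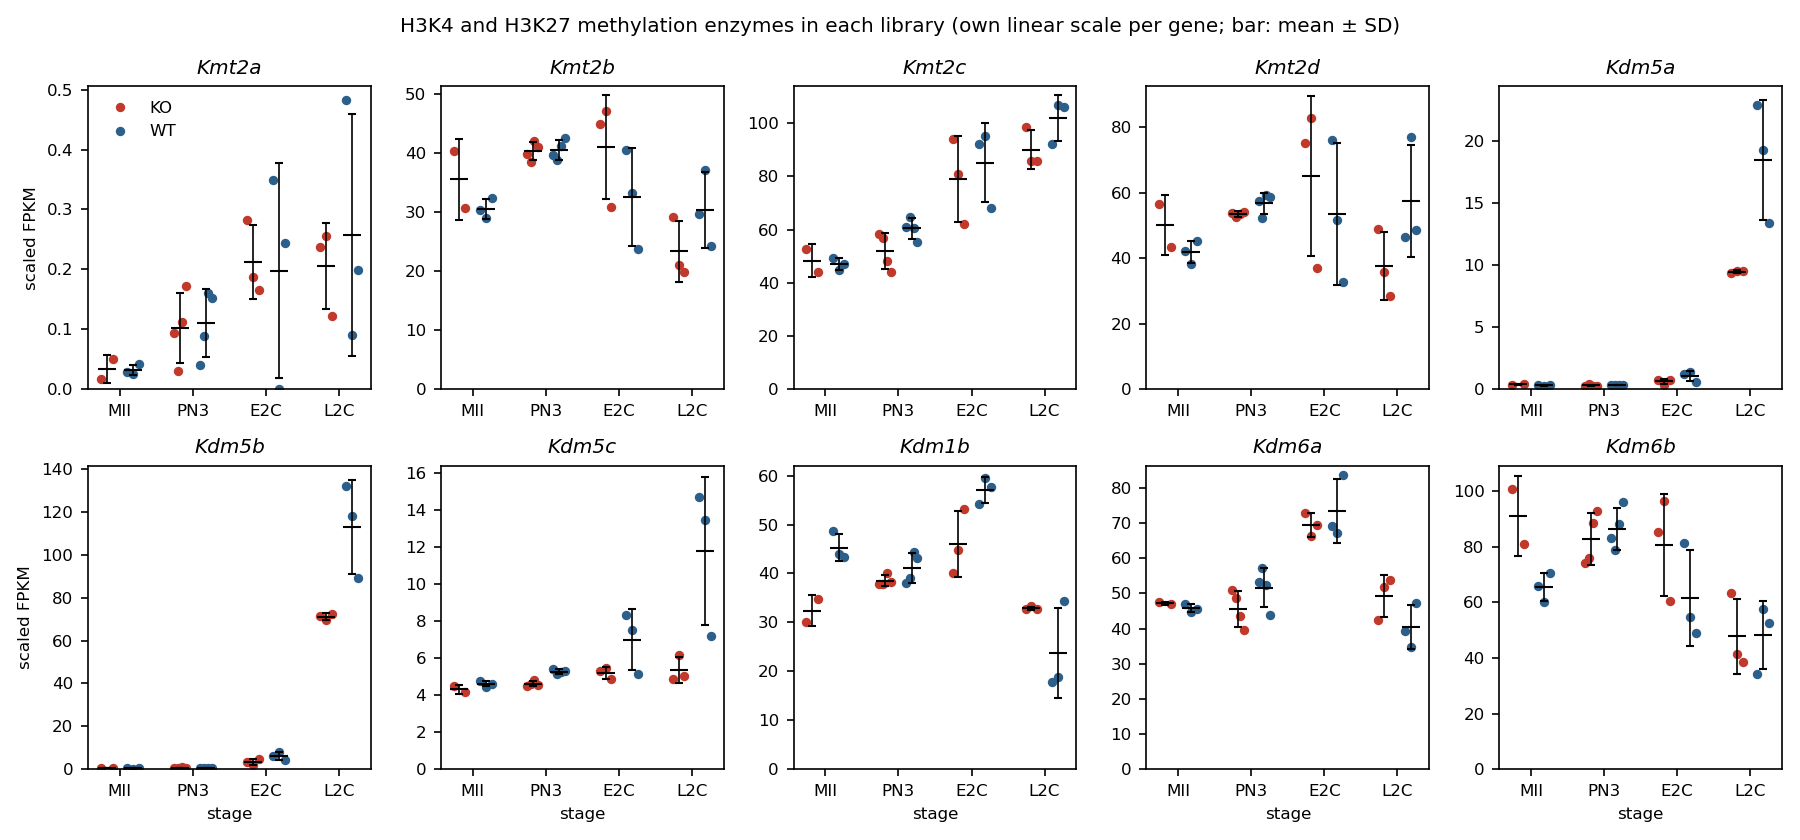
Scaled FPKM (linear axis from 0, a separate scale for each gene) of the 10 enzymes at MII, PN3, E2C and L2C in KO (red) and WT (blue) libraries; each point is 1 library and the black bar is the mean ± SD. Kdm5a and Kdm5b are near 0 until the 2-cell stage and reach 9.36 to 9.58 and 69.7 to 72.6 in KO L2C, and 13.4 to 22.9 and 89.2 to 132 in WT L2C.

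The H3K4 demethylase Kdm5b (chromosome 1, 134560171 to 134635285, plus strand, GRCm38) had the largest stage change of the 9 genes in both genotypes. In KO it averaged 0.294 at MII, 0.602 ± 0.113 at PN3 (SD, n = 4), 3.42 ± 1.33 at E2C and 71.2 ± 1.47 at L2C (n = 3 each). In WT it averaged 0.393 ± 0.127 at MII (n = 3), 0.611 ± 0.101 at PN3 (n = 4), 6.04 ± 1.86 at E2C and 113 ± 21.8 at L2C (n = 3 each). The means of L2C and MII thus differed 242-fold in KO and 288-fold in WT. Kdm5b was below 1 in every MII and PN3 library. It passed the filter (FPKM of at least 1 in at least 3 libraries) through 2-cell libraries alone, where it is high. Both ratios divide by MII levels under that limit. In the last step Kdm5b stood at 71.3, 69.7 and 72.6 in KO L2C, against 3.38, 2.12 and 4.78 in KO E2C, a log2 difference of 4.07 (95% interval 3.47 to 4.67, limma adjusted p = 4.39e-10). It stood at 132, 118 and 89.2 in WT L2C, against 5.96, 7.94 and 4.23 in WT E2C, a log2 difference of 4.03 (3.43 to 4.63, adjusted p = 2.7e-10). Every L2C library lay above every E2C library of its genotype, as for 36.1% of all genes in KO and 34.3% in WT. Kdm5b also rose from PN3 to E2C, by 1.42 in KO (limma adjusted p = 9.29e-05) and by 2.10 in WT (2.3e-07). These rises at the 2-cell stages were called under all 34 alternative settings.

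Kdm5a (chromosome 6, 120364124 to 120444574), the closest relative of Kdm5b, rose at the late 2-cell stage from a lower start. It was 9.36, 9.58 and 9.56 in KO L2C, against 0.783, 0.367 and 0.750 in KO E2C, a log2 difference of 2.69 (limma adjusted p = 8.76e-09). It was 22.9, 19.3 and 13.4 in WT L2C, against 1.22, 1.39 and 0.610 in WT E2C, a log2 difference of 3.23 (adjusted p = 3.47e-10). At MII and PN3 Kdm5a lay between 0.272 and 0.436 in all libraries of both genotypes. Like Kdm5b, Kdm5a passed the filter through 2-cell libraries alone. Its exons share 251 bases with Ccdc77 on the opposite strand. From PN3 to E2C it rose in WT by 0.60 (limma adjusted p = 0.0157), a call lost without WT E2C replicate 1 (adjusted p = 0.0839) and with the groups compared fitted alone (0.0999), and in KO its difference was 0.31 (adjusted p = 0.252).

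Kdm5c, the X-linked member of the family (X, 152233020 to 152274535), was present from the oocyte on. In KO its means were 4.31 and 4.62 in MII oocytes and PN3 zygotes and 5.21 and 5.36 in E2C and L2C embryos, and no step was called. In WT it averaged 4.61, 5.27, 7.01 and 11.8 at the same stages. It was 14.7, 13.5 and 7.21 in WT L2C, against 8.33, 7.55 and 5.14 in WT E2C. The groups overlapped, and the log2 difference was 0.64 (limma adjusted p = 0.0253). That call was lost with these groups fitted alone (adjusted p = 0.164), and without WT L2C replicate 1 (0.131), WT L2C replicate 2 (0.110) or WT E2C replicate 3 (0.148), and the difference was 0.06 without WT L2C replicates 1 and 2. Over MII to L2C Kdm5c rose by 1.14 in WT (limma adjusted p = 1.53e-06; 0.55 without WT L2C replicates 1 and 2), called under all 34 alternatives, against a difference of 0.26 in KO (adjusted p = 0.174).

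The make-up of the Kdm5 family therefore differed between oocyte and late 2-cell embryo. Kdm5c made up 85.1% to 87.0% of the summed Kdm5a, Kdm5b and Kdm5c level in the KO MII libraries and 84.5% to 89.2% in the WT MII libraries. Kdm5b made up 81.6% to 83.3% of it in KO L2C and 77.8% to 81.2% in WT L2C. The summed Kmt2 level was 24.2 to 29.1 times the summed Kdm5 level in KO MII and 21.7 to 23.1 times in WT MII. At L2C that ratio of summed levels was 1.54 to 2.07 in KO and 0.993 to 1.63 in WT. The ratios are descriptions of transcript levels per length, without a test.

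The methyltransferases Kmt2b, Kmt2c and Kmt2d moved little beside this. From MII to PN3 each rose in WT, Kmt2b by 0.40 (limma adjusted p = 0.00033), Kmt2c by 0.35 (0.000501) and Kmt2d by 0.43 (0.000834). WT levels of Kmt2b (chromosome 7, 30568858 to 30588726) were 39.6, 38.7, 41.1 and 42.5 at PN3, against 30.3, 28.9 and 32.4 at MII, and those of Kmt2c (chromosome 5, 25271798 to 25498783) were 60.9, 64.9, 60.7 and 55.4 at PN3, against 49.2, 44.9 and 47.2 at MII. All 3 genes were without overlap between these WT stages, as were 20.4% of all genes on the higher side. In KO the differences of the same step were 0.19, 0.10 and 0.11 and none was called, with KO MII replicate 1 well above replicate 2 (40.3 and 30.7 for Kmt2b, 56.4 and 43.5 for Kmt2d). Without KO MII replicate 1, which leaves 1 KO MII library, the KO differences were 0.38 for Kmt2b, 0.23 for Kmt2c and 0.29 for Kmt2d.

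Of the 3 tested members of the family, Kmt2c rose over the span from the oocyte to L2C. It was 98.6, 85.9 and 85.6 in KO L2C, against 52.8 and 43.9 in KO MII, and rose by 0.89 (limma adjusted p = 0.000317). It was 92.0, 107 and 106 in WT L2C, against 49.2, 44.9 and 47.2 in WT MII, and rose by 1.09 (adjusted p = 2.09e-05). Both calls held under all 34 alternatives. Kmt2d was also without overlap over this span in WT, at 46.3, 77.0 and 48.6 in WT L2C, against 42.2, 38.3 and 45.1 in WT MII, and was not called (0.41, adjusted p = 0.14; 42.0% of all genes lay apart on the higher side). Kmt2b ended lower in KO, at 29.2, 21.0 and 19.8 at L2C, against 44.8, 47.1 and 30.8 at E2C (log2 difference -0.78, limma adjusted p = 0.0389). That call was lost with TPM (adjusted p = 0.0523), a pseudocount of 0.1 (0.0502) or no filter (0.071), and without KO E2C replicate 1 (0.141), KO E2C replicate 2 (0.167), KO L2C replicate 2 (0.127) or KO L2C replicate 3 (0.149). Over MII to L2C Kmt2b fell by 0.59 in KO (adjusted p = 0.0153; 0.112 without KO L2C replicate 2 and 0.141 without replicate 3), and the WT difference was -0.03 (adjusted p = 0.902). Kmt2d (chromosome 15, 98831669 to 98871204) varied widely at the 2-cell stages, from 37.1 to 82.7 in KO E2C and from 32.7 to 76.1 in WT E2C, and its E2C and L2C steps were not called, although without KO E2C replicate 3 its KO difference from E2C to L2C was -1.08 (limma adjusted p = 0.0347).

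The other H3K4 demethylase, Kdm1b (chromosome 13, 47043499 to 47085279), was abundant in the oocyte and fell in WT at the late 2-cell stage. It was 17.8, 18.9 and 34.4 in WT L2C, against 54.3, 59.5 and 57.6 in WT E2C, a log2 difference of -1.30 (limma adjusted p = 0.000117), and it was 32.7, 33.3 and 32.7 in KO L2C, against 40.0, 44.8 and 53.2 in KO E2C, a difference of -0.46 (adjusted p = 0.139; 0.0215 with these groups fitted alone). WT L2C replicate 3 lay at the KO level, apart from WT L2C replicates 1 and 2. Without those 2 libraries, which leaves 1 WT L2C library, the WT difference was -0.72. Over MII to L2C Kdm1b fell by 0.97 in WT (limma adjusted p = 2.23e-05). Without WT L2C replicates 1 and 2 the difference was -0.39 and the call was lost. The KO difference over that span was 0.02 (adjusted p = 0.904). From MII to PN3 Kdm1b rose in KO by 0.25 (limma adjusted p = 0.00944), a call lost without stage weights (0.577). Without KO MII replicate 1, which leaves 1 KO MII library, the difference was 0.15 and the call was lost. Exons of Kdm1b share 505 bases with Dek on the opposite strand.

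The H3K27 demethylases had their highest group means before the late 2-cell stage in both genotypes. For Kdm6b no single step after PN3 was called in either genotype (limma adjusted p of 0.08 to 0.91). Its KO difference from E2C to L2C was -0.75 (adjusted p = 0.08, and 0.0204 with these groups fitted alone). Kdm6a, X-linked (X, 18162575 to 18279936), averaged 69.5 in KO E2C and 73.4 in WT E2C, its highest stage in both genotypes. It rose from PN3 to E2C by 0.60 in KO (limma adjusted p = 0.0223) and by 0.50 in WT (0.0419). The KO call was lost with FPKM as deposited (adjusted p = 0.116) or TPM (0.0634), and without KO E2C replicate 1 (0.184), 2 (0.106) or 3 (0.107). The WT call was lost with FPKM as deposited (0.302), TPM (0.144) or the groups fitted alone (0.152), and without WT E2C replicate 1 (0.0906) or 3 (0.195), WT PN3 replicate 4 (0.0524), or KO E2C replicate 1 (0.074), 2 (0.0741) or 3 (0.0602). From E2C to L2C it fell in WT by 0.85, to 39.3, 34.8 and 47.2 in WT L2C, against 69.3, 67.2 and 83.8 in WT E2C (limma adjusted p = 0.00455). Kdm6a lost that call without WT L2C replicates 1 and 2, which leaves 1 WT L2C library. In KO it was 42.5, 51.8 and 53.8 at L2C, against 72.9, 66.2 and 69.5 at E2C, without overlap (difference -0.49, limma adjusted p = 0.104, and 0.0139 with these groups fitted alone). In that KO step 23.2% of all genes lay apart on the lower side. Kdm6b (chromosome 11, 69398508 to 69413675) rose from MII to PN3 in WT, to 78.8 to 96.2 at PN3, against 60.3 to 70.5 at MII (0.39, adjusted p = 0.00122). In KO it fell over MII to L2C by 0.94, to 63.4, 41.5 and 38.7 in KO L2C, against 101 and 81.0 in KO MII (adjusted p = 0.00124, called under all 34 alternatives). The WT difference over the same span was -0.47 (limma adjusted p = 0.0754, and 0.0428 without WT MII replicate 2). The KO and WT means of Kdm6b were 91.2 and 65.6 at MII, and 47.9 and 48.2 at L2C. Whether its change over this span differed between the genotypes was not tested.

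Counted over the 9 tested genes, the calls in KO were 2 higher from MII to PN3 (Kdm5b and Kdm1b; 17.6% of all genes were higher), 2 higher from PN3 to E2C (Kdm5b and Kdm6a; 8.87% of all genes), and 2 higher and 1 lower from E2C to L2C (26.8% and 14.0%). In WT they were 7 higher from MII to PN3 (19.2%), 3 higher from PN3 to E2C (12.9%), and 3 higher and 2 lower from E2C to L2C (34.1% and 18.3%). Kdm5b was counted as higher in each of these steps in both genotypes. Kdm5a was so from E2C to L2C in both genotypes and from PN3 to E2C in WT. Both genes passed the filter through 2-cell libraries alone, and both also count as higher from MII to L2C in both genotypes. From MII to PN3 the Kdm5b call compares levels below 1 in every library. Without stage weights none of the 9 genes was called from MII to PN3 in either genotype. Over the whole span from MII to L2C, 3 were higher and 2 lower in KO (38.0% and 30.7% of all genes), and 4 higher and 1 lower in WT (40.4% and 33.3%). The median log2 difference of the 9 genes was 0.06 in KO and 0.41 in WT over that span, against 0.12 and 0.13 over all genes tested. Of the 7 genes higher at WT PN3, Kdm5b, Kdm5c and Kdm6a had small differences (0.21, 0.16 and 0.16) and lost the call with those groups fitted alone (limma adjusted p of 0.0809, 0.0614 and 0.0821), where 18.4% of all genes were called higher. They also lost it without WT MII replicate 2 (limma adjusted p of 0.187, 0.13 and 0.121) or without WT PN3 replicate 1, 2 or 3 (0.0584 to 0.196), and Kdm5c also without WT MII replicate 1 or 3, WT PN3 replicate 4, KO PN3 replicate 1, 2 or 3, WT E2C replicate 2 or KO L2C replicate 1, and Kdm6a also without WT MII replicate 3 or WT E2C replicate 2.

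In the KO oocyte Kdm1b was lower and Kdm6b higher than in WT. Kdm1b stood at 30.1 and 34.7 in KO MII, against 48.6, 44.0 and 43.4 in WT MII. Both KO oocyte libraries were below all 3 WT libraries, and Kdm1b fell by 0.47 (SE 0.06, limma adjusted p = 2.92e-05). With the MII libraries fitted alone the adjusted p was 0.0422. Kdm6b stood at 101 and 81.0 in KO MII, against 65.9, 60.3 and 70.5 in WT MII, again without overlap, and rose by 0.46 (SE 0.09, adjusted p = 0.00106). Fitted alone, its limma adjusted p was 0.0736. Without KO MII replicate 1, which leaves 1 KO MII library, its difference was 0.30. Without stage weights the adjusted p of both genes was 1.0. These 1 lower and 1 higher of 9 genes compare with 6.99% and 5.99% of all genes, 13.0% in all. Kdm5a also did not overlap (0.373 and 0.436 in KO, 0.364, 0.282 and 0.348 in WT; difference 0.08, adjusted p = 0.494). In this comparison of 2 with 3 libraries, 19.6% of all genes lay apart on the higher side and 20.8% on the lower side. Kmt2b and Kmt2d differed by 0.20 and 0.24 (limma adjusted p of 0.10 and 0.0956). Without KO MII replicate 2, which leaves 1 KO MII library, their differences were 0.39 and 0.43. With FPKM as deposited the calls over all genes were 428 higher and 1187 lower in KO, against 723 and 844 with rescaled values. Kdm1b and Kdm6b kept their direction and call there (-0.53 and 0.41).

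**Figure D2:**
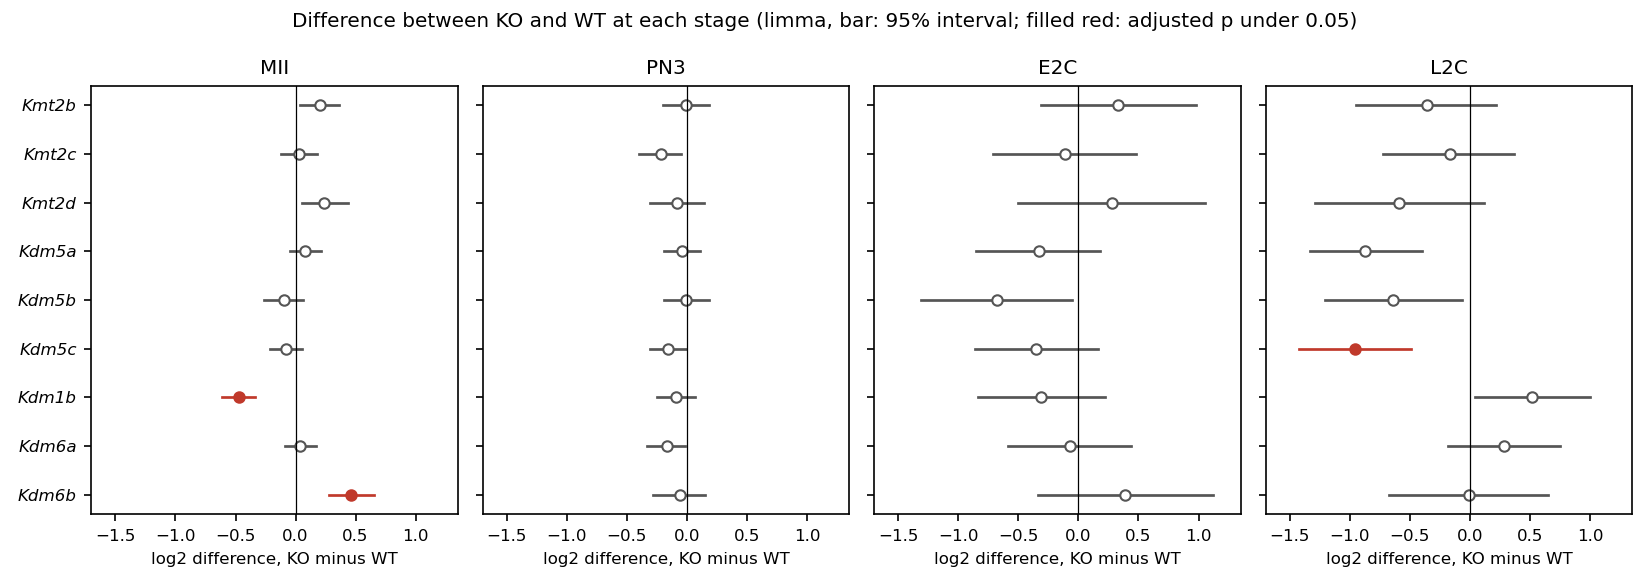
Log2 difference, KO minus WT, of the 9 tested enzymes at each stage (panels), from limma on log2(scaled FPKM + 1); bars are 95% intervals and filled red points have an adjusted p under 0.05. The intervals are narrow at MII and PN3 and wide at E2C and L2C, and the filled points are Kdm1b (-0.47) and Kdm6b (0.46) at MII and Kdm5c (-0.96) at L2C.

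At PN3 the differences of Kdm1b and Kdm6b were near 0. None of the 9 genes was called at this stage (limma), where 3.05% of all genes were called. An unadjusted limma p under 0.05 was found for 3 of the 9 and for 1950 of all 12079 genes tested. Kdm1b was 37.9, 37.8, 40.1 and 38.2 in KO PN3, against 38.1, 39.0, 44.3 and 43.2 in WT PN3 (difference -0.09, 95% interval -0.25 to 0.07). Kdm6b was 74.1 to 92.9 in KO PN3, against 78.8 to 96.2 in WT PN3 (difference -0.06, interval -0.28 to 0.15). The change of the KO effect between MII and PN3, tested as an interaction, was 0.38 for Kdm1b (limma adjusted p = 0.0405) and -0.53 for Kdm6b (0.0402), where 1.39% of all genes were called higher and 0.902% lower. Each of these calls was lost under 18 of the 34 alternatives, among them the 4 groups fitted alone (0.10 and 0.108). That of Kdm1b was lost without KO MII replicate 1, KO PN3 replicate 1, 2, 3 or 4, WT MII replicate 1 or 2, WT PN3 replicate 1 or 2, WT E2C replicate 1, 2 or 3, or KO L2C replicate 1 (adjusted p of 0.0503 to 0.171). That of Kdm6b was lost without KO MII replicate 1, KO PN3 replicate 1, 2 or 3, WT MII replicate 1 or 2, WT PN3 replicate 1, 3 or 4, WT E2C replicate 2, or WT L2C replicate 3 (0.0524 to 0.184). Kmt2c had the largest difference at PN3, with 58.5, 56.7, 48.1 and 44.2 in KO against 60.9, 64.9, 60.7 and 55.4 in WT (-0.22, 95% interval -0.40 to -0.05, adjusted p = 0.166). Kdm6a was 50.9, 48.6, 43.5 and 39.6 in KO PN3, against 53.1, 57.1, 52.4 and 43.9 in WT PN3 (-0.17, interval -0.33 to -0.02, adjusted p = 0.223). The groups overlapped for both. All 9 differences were below 0 at this stage, with a median of -0.08, against 0.0 over all genes tested. Those of Kmt2b and Kdm5b were -0.01 each. With same-numbered libraries treated as blocks, Kmt2c (limma adjusted p = 0.0128) and Kdm6a (0.0253) were called, although no label states that the numbers are pairs. Kdm5c was without overlap at PN3 (4.48, 4.61, 4.82 and 4.56 in KO, 5.43, 5.12, 5.23 and 5.31 in WT), by a difference of -0.16 (adjusted p = 0.275), in a comparison where 5.11% of all genes lay apart on the lower side.

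At E2C none of the 9 genes was called (limma), and 1 gene, 0.00828% of all, was called in the whole table. An unadjusted limma p under 0.05 was found for 1 of the 9 and for 722 of all 12079 genes. The spread was wide. Kdm5b had the largest difference, with 3.38, 2.12 and 4.78 in KO E2C against 5.96, 7.94 and 4.23 in WT E2C (-0.68, 95% interval -1.31 to -0.05, adjusted p = 0.808), and the libraries overlapped. Kdm1b did not overlap, at 40.0, 44.8 and 53.2 in KO E2C against 54.3, 59.5 and 57.6 in WT E2C (-0.31, adjusted p = 0.958; 4.38% of all genes lay apart on the lower side). Kdm5c, at 5.29, 5.48 and 4.85 in KO E2C and 8.33, 7.55 and 5.14 in WT E2C, overlapped through WT replicate 3 (-0.35, adjusted p = 0.94). Kdm6b was 85.3, 96.4 and 60.5 in KO E2C, against 81.4, 54.6 and 49.0 in WT E2C (0.39, adjusted p = 0.966). For Kmt2b, Kmt2c, Kmt2d and Kdm6b, replicate 3, the one with high Rn45s, was the lowest library of both genotypes at this stage. Apart from Kdm5b, the intervals included 0 and reached 1.12 for Kdm6b and 1.05 for Kmt2d, and changes of that size were not excluded here.

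At L2C, where the Kdm5 genes are at their height in WT, all 3 were lower in every KO library than in every WT library. Kdm5b was 71.3, 69.7 and 72.6 in KO L2C, against 132, 118 and 89.2 in WT L2C. Kdm5a was 9.36, 9.58 and 9.56 in KO L2C, against 22.9, 19.3 and 13.4 in WT L2C. Kdm5c was 4.89, 6.15 and 5.04 in KO L2C, against 14.7, 13.5 and 7.21 in WT L2C. The KO means were 0.629, 0.512 and 0.454 of the WT means. The KO libraries lay close together and WT L2C replicate 3 was the nearest WT library to them for each gene. These were 3 of 9 genes without overlap on the lower side, against 11.4% of all genes, and 0 on the higher side, against 8.76%.

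Of these differences only that of Kdm5c passed the test, with 0.323% of all genes called lower and 0.77% in all. Kdm5c fell by 0.96 (SE 0.22, 95% interval -1.42 to -0.49, limma adjusted p = 0.0442), a call at the threshold that was lost under 30 of the 34 alternatives, including every removal of 1 library other than WT L2C replicate 3 or WT E2C replicate 3 (adjusted p of 0.0508 to 0.322). The difference was -0.87 for Kdm5a (interval -1.33 to -0.40, adjusted p = 0.0618) and -0.64 for Kdm5b (-1.21 to -0.07, adjusted p = 0.223). With the L2C libraries fitted alone, the adjusted p of each was 0.295, and no gene of the whole table was called (0.0%). Without WT L2C replicate 3 all 3 were called (-1.07, -0.80 and -1.25, adjusted p of 0.000841, 0.0335 and 7.28e-05). WT L2C replicates 1 and 2 have no Y-linked signal and low oocyte and 2-cell sums. Without them, which leaves 1 WT L2C library, the differences were -0.46 for Kdm5a, -0.32 for Kdm5b and -0.37 for Kdm5c. The part of those libraries' composition in the result was not tested.

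Kdm1b showed the reverse pattern at L2C, with 32.7, 33.3 and 32.7 in KO, against 17.8, 18.9 and 34.4 in WT. Its KO libraries lay above WT L2C replicates 1 and 2 and below replicate 3. The difference was 0.52 (95% interval 0.04 to 1.0, limma adjusted p = 0.246) and 0.81 without WT L2C replicate 3 (0.00518). Without WT L2C replicates 1 and 2, which leaves 1 WT L2C library, the difference was -0.06. Kmt2d was 48.9, 35.8 and 28.4 in KO L2C, against 46.3, 77.0 and 48.6 in WT L2C. Kdm6a (0.28), Kdm6b (-0.01), Kmt2b (-0.36), Kmt2c (-0.17) and Kmt2d (-0.59) were not called, and their libraries overlapped. The median of the 9 genes was -0.36, against -0.05 over all genes tested. With TPM the calls over all genes at L2C were 68 higher and 18 lower, against 54 and 39 with rescaled FPKM. The change of the KO effect between PN3 and E2C, and between E2C and L2C, was called for none of the 9 genes (limma, with 0.0% and 0.00828% of all genes called). In each, 1 of the 9 had an unadjusted limma p under 0.05, as did 642 and 1381 of all 12079 genes.

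**Figure D3:**
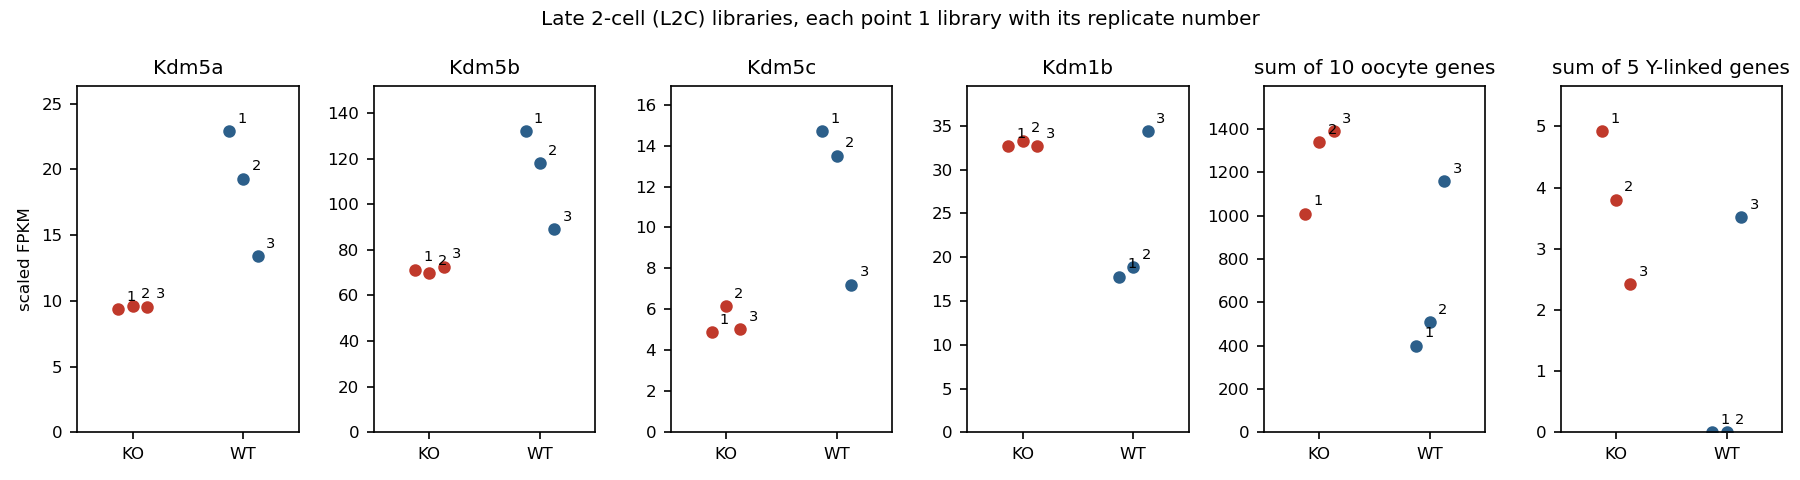
Scaled FPKM in the late 2-cell libraries (KO red, WT blue; each point is 1 library, labelled with its replicate number; linear axes from 0) of Kdm5a, Kdm5b, Kdm5c and Kdm1b, the summed level of 10 oocyte genes and the summed level of 5 Y-linked genes. WT replicates 1 and 2 are the high Kdm5 and low Kdm1b libraries, have oocyte sums of 401 and 509 and a Y-linked sum of 0, and WT replicate 3 lies nearer to the KO libraries. The Y-linked genes were chosen after their values were seen.

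Among genes that work with these enzymes, most calls between KO and WT were at MII, the stage with the narrowest intervals, where 5.99% of all genes were called higher and 6.99% lower. Of 15 COMPASS subunits and partners, listed as proteins of H3K4 methyltransferase complexes, 1 was higher in KO MII. It was Paxip1, of the Kmt2c and Kmt2d complexes, at 8.75 ± 0.39 in KO (SD, n = 2) and 7.45 ± 0.412 in WT (n = 3, log2 difference 0.21, limma adjusted p = 0.0273). Of 9 other H3K4 methyltransferases, 7 were tested, and Setd1b rose (16.3 ± 1.43 in KO, 12.1 ± 0.887 in WT; 0.40, adjusted p = 0.000488) and Smyd2 fell (1.69 ± 0.158 and 2.78 ± 0.32; -0.49, adjusted p = 0.00341). Of 12 other H3K4 demethylases and partners, 10 were matched and 9 tested, of which 4 rose and 0 fell: Kdm1a, the paralog of Kdm1b (28.2 ± 0.463 in KO, 23.9 ± 0.745 in WT; 0.23, adjusted p = 0.00799), its corepressor partner Rcor1 (0.31, 0.0045), Hmg20b (0.23, 0.0244) and Kdm2b (0.20, 0.0319). Of 14 genes tested, of 15 listed for H3K27 methylation and its other demethylases, the methyltransferase Ezh1 rose (19.6 ± 0.261 in KO, 16.0 ± 0.464 in WT; 0.28, adjusted p = 0.000238), the histone-binding subunit Rbbp4 rose (0.17, 0.0276) and the PRC2 subunit Eed fell (-0.16, 0.03). List medians at MII were 0.07, -0.01, 0.19 and -0.02, in the order of these lists, against 0.00 for all genes. With the MII libraries fitted alone, Smyd2 (adjusted p = 0.0499) and Ezh1 (0.0455) were called and the other 8 were not (0.0601 to 0.162).

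At PN3 the demethylase partner Hmg20b was called (16.1 ± 0.698 in KO, 13.0 ± 1.3 in WT, SD, n = 4 each; 0.29, limma adjusted p = 0.0376; 0.11 with the stage fitted alone), and the KO effect changed between MII and PN3 for the coactivator Ncoa6 (-0.34, adjusted p = 0.0433; 0.129 with the 4 groups fitted alone) and for Kdm1a (-0.33, 0.0466; 0.0455 fitted alone). No gene of the 4 lists was called at E2C or L2C (limma). From E2C to L2C, 26.8% of all genes were called higher and 14.0% lower in KO, and 34.1% higher and 18.3% lower in WT. In that step COMPASS subunits and partners had 4 higher and 3 lower of 15 in KO, and 6 higher and 4 lower in WT. The other H3K4 methyltransferases had 2 higher and 0 lower of 7 in KO, and 2 higher and 1 lower in WT. The other H3K4 demethylases and partners had 2 higher and 3 lower of 9 in KO, and 4 higher and 2 lower in WT. The H3K27 methylation genes had 4 higher and 4 lower of 14 in KO, and 3 higher and 3 lower in WT.

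The tested genes whose group means were most alike those of 1 enzyme of each role were found by Pearson correlation of log2 group means over the 8 groups, as a description. For Kdm5b they were Hdac1 (r = 0.9996), Sfi1 (0.9995) and Ppp1cc (0.9992). The group means of Hdac1, a histone deacetylase, spanned 2.45 to 92.8. For Kdm1b they were Trim38 (0.9827), Dpp10 (0.9816) and Bcl6 (0.9777), for Kdm6b Syt7 (0.9586), Crtc1 (0.9571) and Zfp687 (0.9569), and for Kmt2b Golga2 (0.9717), Ogdh (0.9527) and Rap1gap2 (0.9475). The 8 points share libraries and scaling, and many genes change between the same stages.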

How the data were processed

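RNA of the 25 libraries was made into ribosome-depleted stranded libraries and read in pairs of 150 bases, per the labels' protocols. The deposited files hold FPKM per gene symbol, computed by the authors. Trim Galore 0.4.5, HISAT2, HTSeq and StringTie, with mm10 and GRCm38, are listed in the submitters' processing notes without roles, and use of strand in counting is not stated. Libraries were rescaled by the median ratio over 6492 genes with FPKM of at least 1 in every library. Genes with FPKM of at least 1 in at least 3 libraries (12079) were tested with limma 3.58.1 (R 4.3.3) on log2(scaled FPKM + 1): 8 group means, 17 residual degrees of freedom, weights per stage (MII 5.25, PN3 2.26, E2C 0.265 and L2C 0.320), trend and robust prior, Benjamini-Hochberg adjustment, calls under 0.05. Genes, lists and the weighting were chosen with earlier results of these data known; the Y-linked list was chosen after its values were seen. Rule for names: all 10 enzymes, Smarca4, genes of 4 lists called between KO and WT, and the 3 most alike genes of 4 enzymes. Coordinates are from GENCODE vM21. Depth is unknown, so no counting error is given.

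The fit was tested on simulated data with 200 of 12079 genes changed. False calls made up 30.0%, 18.8%, 33.2% and 29.7% of KO against WT calls, by stage in order, with the weighted fit, against 3.33%, 3.97%, 3.66% and 2.11% with each stage fitted alone, where 92.6%, 94.0%, 19.4% and 28.6% of genes changed 2-fold were recovered. Without stage weights, false calls made up 0.242%, 1.1%, 74.8% and 64.3% of these calls. Adjusted p-values of the groups fitted alone are therefore given where a call depends on the fit. Alternatives were FPKM as deposited, TPM, a pseudocount of 0.1, no filter, no weights, only the groups compared, a replicate block, and leaving out each library; 2 more were added after seeing the data, leaving out both E2C replicates 3 or WT L2C replicates 1 and 2.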

Additional observations from a re-analysis of the deposited data

Results flagged for a closer look

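At KO PN3 the highest library stood far from the other 3 for 2 genes. Kdm5b was 0.77 in KO PN3 replicate 3, against 0.532 to 0.564 in the others, a gap of 0.867 of the group's range. Kdm1b was 40.1 in the same library, against 37.8 to 38.2 in the others, a gap of 0.85 of the range. In all 20 groups of 4 libraries were examined, and chance flags about 1 in 20. The KO effect was called as different between MII and PN3 for Kdm1b (interaction 0.38 on the log2 scale, limma adjusted p = 0.0405) and for Kdm6b (-0.53, adjusted p = 0.0402). Each call was lost under 18 of the 34 alternatives. With the 4 groups fitted alone the limma adjusted p was 0.10 and 0.108. Of all genes, 1.39% were called higher and 0.902% lower.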

How the results depend on the processing

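Of 135 pairs of gene and comparison, 37 were called; 15 of these were called under all 34 alternatives and 0 changed sign. Of the 98 not called, 29 changed sign under at least 1 alternative and 72 were never called. Leaving out 1 KO MII library, or WT L2C replicates 1 and 2, left 1 library in that group. The numbers of enzymes called moved as follows. The share of all genes called is not set beside each setting, so these counts describe the calls alone. With only the groups compared, that share went from 13.0% to 3.51% for KO against WT at MII and from 0.77% to 0.0% at L2C. It went from 45.2% to 43.8% for WT MII to PN3, and from 31.0% to 17.5% for WT PN3 to E2C. For KO E2C to L2C it went from 40.8% to 50.5%. For the change of the KO effect between MII and PN3 it went from 2.29% to 0.952%. Without weights, 64.3% of the simulated KO against WT calls at L2C were false. KO against WT at MII (2 called): 0 unweighted, 1 with only the groups compared, 2 to 4 leaving out 1 library each. At PN3 (0): 2 with the replicate block (Kmt2c and Kdm6a), 0 to 0 leaving out 1 each. At E2C (0): 0 to 0. At L2C (1): 4 unweighted, 0 with FPKM as deposited, TPM, no filter, only the groups compared, the replicate block, without both E2C replicates 3 and without WT L2C replicates 1 and 2, and 0 to 4 leaving out 1 each; Kdm1b there reversed to -0.06 without WT L2C replicates 1 and 2. WT MII to PN3 (7): 0 unweighted, 4 without a filter, 4 with the groups compared, 4 to 7 leaving out 1 each. WT PN3 to E2C (3): 6 unweighted, 1 with the groups compared, 1 to 4 leaving out 1 each. WT E2C to L2C (5): 3 without WT L2C replicates 1 and 2, 4 to 5 leaving out 1 each. KO MII to PN3 (2): 0 unweighted, 4 with the replicate block, 2 to 4 leaving out 1 each. KO PN3 to E2C (2): 1 with FPKM as deposited, TPM or without both E2C replicates 3, 1 to 3 leaving out 1 each. KO E2C to L2C (3): 7 unweighted, 6 with the groups compared, 5 with the replicate block, 2 with TPM, a pseudocount of 0.1 or no filter, 2 to 4 leaving out 1 each. With the groups compared, 32.0% of all genes were called higher and 18.4% lower in that step. MII to L2C (5 in WT and 5 in KO): 7 in WT with FPKM as deposited or TPM and 4 in WT without WT L2C replicates 1 and 2, 5 to 6 in WT and 4 to 6 in KO leaving out 1 each. Change of the KO effect between MII and PN3 (2): 0 unweighted, with a pseudocount of 0.1, no filter or the groups compared, 1 with FPKM as deposited, TPM, without both E2C replicates 3 or without WT L2C replicates 1 and 2, and 0 to 5 leaving out 1 each; between E2C and L2C (0): 1 unweighted, 0 to 1 leaving out 1 each. The cause was not tested.

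Same-numbered KO and WT libraries did not all deviate together (r from -0.184 to 0.428), and not every library correlated best with its own number, so the replicate numbers were not taken as pairs. Some libraries did deviate together. At PN3, KO replicates 1 and 2 did so with WT replicate 2 (0.30 and 0.372), and KO replicates 3 and 4 with WT replicate 4 (0.28 and 0.428). At E2C each KO library correlated best with its own number (0.067, 0.081 and 0.161). Against the median of all genes from PN3 to E2C in WT (-0.05), FPKM as deposited gave -0.20 and TPM -0.17, and calls over all genes were 938 higher and 3039 lower as deposited, against 1560 and 2181. Unknown depth, 2 KO MII libraries and the spread at E2C and L2C limit what could be detected.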
